A study of Mus musculus with 15 samples.

Results

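A set of 10 genes that respond to glucocorticoid hormone or to fasting was followed in mouse plantaris muscle after weighted wheel running and after detraining. They were Ddit4, Fkbp5, Cebpd, Depp1, Arrdc2, Klf15, Cdkn1a, Angptl4, Pdk4 and Ucp3, 10 of the 20406 genes listed, and they were chosen by how closely their levels varied with that of Ddit4 between libraries of one group. That likeness is therefore given as a description without a test, while the differences between groups were tested. The criterion did not use those differences, but the spread inside groups on which it drew is the error of the tests. The genes also tended to be high or low in the same libraries. Counts of the 10 that passed or shared a direction are therefore not independent of the choice. The genes were proposed with earlier results of these data known.

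All 15 libraries came from adult male HSA-GFP mice, which carry a reverse tetracycline transactivator driven by the human skeletal actin promoter and a tetracycline-responsive histone 2B-GFP that marks resident myonuclei. Groups were taken from the titles, which do not themselves give the starting age or the weeks of running and detraining. The 9M_PoW+DT mice began at 4 months, ran with progressive weights (PoWeR) for 8 weeks, were detrained for 12 weeks and were sampled at 9 months. The 9M_UT mice were untrained at 9 months. The 6M_PoW mice ran for 8 weeks and were sampled at 6 months, and 6M_UT mice were untrained at 6 months. The 6M_POW_LD libraries are titled as trained at 6 months, and the labels do not say what LD means. Every group had 3 libraries, 1 to 3 by title and 4 to 6 for LD. All 9-month and LD libraries, 9 in number, carry a treatment field at odds with the title. The direction and the meaning of every difference that uses them therefore rest on the titles. With the treatment field the sign of the 9M_PoW+DT differences from 9M_UT turns round. That field gives the LD libraries as sedentary, so by it 6M_POW_LD against 6M_UT would set untrained against untrained muscle. The labels do not say that replicates were separate animals, and p-values then measure only the spread between these samples.

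Glucocorticoids reach muscle through the blood, bind the glucocorticoid receptor and send it to the nucleus, where it raises transcription of genes such as Fkbp5 and Klf15. Fasting raises glucocorticoid and fatty acid levels and lowers insulin, which frees FoxO factors to act in the nucleus, while fatty acids activate PPAR receptors. In muscle these routes are known for slowing protein synthesis and moving fuel use from glucose to fat, and several of the genes also change with acute exercise and with the hour of the day.

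Library totals lay between 18865048 and 27688842 expected counts, and no 2 libraries of a group agreed within counting noise. Levels are given in CPM, which sets the effective total of every library to 1000000 counts, and spreads and differences on a log2 scale. The tissue label was checked with 13 fibre genes such as Acta1 and Ckm, whose summed level was 120631 to 163013 CPM. Markers of other cells were lower, with sums of 2455 to 4333 CPM for 10 adipocyte markers, 850 to 1235 CPM for 8 markers of fibro-adipogenic progenitors, 326 to 3113 CPM for 6 erythroid markers, 234 to 363 CPM for 8 endothelial markers and 45.7 to 84.0 CPM for 8 macrophage markers. Of these markers Slc4a1 alone, an erythroid gene, was at 0 in any library, and the adipocyte list holds Car3, which muscle fibres also express. In bulk muscle, fewer cells of a type and less RNA per cell cannot be told apart.

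Promoters of 4 of the genes are shown, and they let the letters upstream of each start be compared. They are from RefSeq (GRCm38.p6), from 250 bases before the RefSeq start, less any base inside the gene as the deposited coordinates place it. A promoter was found for 8 of the 10 genes, in 9 windows, and Cebpd and Angptl4 had none in the table used. The window of Fkbp5 and a further window of Cdkn1a lie inside the gene by the deposited coordinates. The counts of windows given below include them, without that removal of bases. Capitals mark matches on either strand to 5 motifs. The window of Depp1, which varied with Ddit4 about as closely as the genes shown, held none of the 5 and is not shown. The CCAAT box was searched as CCAAT and the GC box of SP factors as GGGCGG. The E-box of clock and MYC factors was searched as CACGTG, and the core of the cyclic AMP response element as TGACG. The half-site of nuclear receptors such as PPARs was searched as AGGTCA.
Ddit4, chr10:59951835-59952020, minus strand: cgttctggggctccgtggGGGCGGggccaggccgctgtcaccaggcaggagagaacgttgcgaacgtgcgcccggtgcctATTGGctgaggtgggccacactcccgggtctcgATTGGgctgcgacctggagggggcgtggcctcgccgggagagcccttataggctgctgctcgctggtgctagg
Arrdc2, chr8:70839721-70839970, minus strand: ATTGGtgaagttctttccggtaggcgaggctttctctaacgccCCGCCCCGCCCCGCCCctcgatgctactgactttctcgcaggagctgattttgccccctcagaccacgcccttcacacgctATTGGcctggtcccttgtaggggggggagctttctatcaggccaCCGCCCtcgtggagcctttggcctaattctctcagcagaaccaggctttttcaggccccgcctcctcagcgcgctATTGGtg
Klf15, chr6:90462326-90462575, plus strand: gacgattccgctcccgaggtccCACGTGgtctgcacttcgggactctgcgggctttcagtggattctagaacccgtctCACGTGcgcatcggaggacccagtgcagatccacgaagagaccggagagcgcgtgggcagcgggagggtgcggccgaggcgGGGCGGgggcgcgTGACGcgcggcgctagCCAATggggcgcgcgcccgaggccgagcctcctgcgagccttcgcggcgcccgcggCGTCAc
Ucp3, chr7:100472741-100472989, plus strand: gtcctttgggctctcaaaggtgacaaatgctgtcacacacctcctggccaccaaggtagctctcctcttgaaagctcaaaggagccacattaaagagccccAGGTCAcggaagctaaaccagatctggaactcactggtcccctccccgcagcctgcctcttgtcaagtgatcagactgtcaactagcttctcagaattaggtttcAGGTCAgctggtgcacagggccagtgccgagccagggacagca
The half-site letters of the glucocorticoid receptor, TGTTCT, were in 0 of the 9 windows, against 16.1% of 32851 mouse promoter windows of 250 bases. The full element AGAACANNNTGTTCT, which contains that half-site, was in 0 of the 9 and in 0.00913% of all windows, and the FoxO core GTAAACA was in 0 of the 9 and in 3.17% of all. The windows thus do not hold these letters, which says nothing of sites elsewhere. The E-box stood in the windows of Klf15, with 2 matches, and Fkbp5, against 6.02% of all windows. AGGTCA stood in that of Ucp3 alone, with 2 matches, against 14.0% of all windows. CCAAT and the GC box were each in 5 of the 9 windows, against 33.8% and 32.7% of all, and TATAAA in 0 of the 9, against 12.4%. No motif searched was in every window.

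Ddit4 (chromosome 10, 59949669 to 59951834 on mm10), also called REDD1, encodes an inhibitor of the growth kinase complex mTORC1 that is induced by glucocorticoids, low oxygen and energy stress. At 9 months Ddit4 stood at 3.21, 14.4 and 85.3 CPM in 9M_PoW+DT replicates 1 to 3, against 12.7, 102 and 130 CPM in 9M_UT replicates 1 to 3. At 6 months it stood at 94.7, 6.97 and 31.8 CPM in 6M_POW_LD replicates 4 to 6 and at 24.1, 17.3 and 16.5 CPM in 6M_PoW replicates 1 to 3, against 117, 17.7 and 13.6 CPM in 6M_UT replicates 1 to 3. The groups overlapped throughout, and 9M_PoW+DT, 6M_POW_LD and 6M_UT each held 1 library far above the lowest of the same group. The highest library exceeded the lowest by 26.5-fold in 9M_PoW+DT, 10.2-fold in 9M_UT, 13.6-fold in 6M_POW_LD and 8.56-fold in 6M_UT, but by 1.46-fold in 6M_PoW. The mean was 34.3 ± 44.5 CPM in 9M_PoW+DT, 81.5 ± 61.3 in 9M_UT, 44.5 ± 45.2 in 6M_POW_LD, 19.3 ± 4.17 in 6M_PoW and 49.3 ± 58.3 in 6M_UT (SD, n = 3 each). 9M_UT stood highest and 6M_PoW lowest, and each step between neighbours in the order of means was smaller than the larger SD of the pair.

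Fkbp5 (chromosome 17, 28399094 to 28517527) encodes a co-chaperone of the glucocorticoid receptor that damps the receptor in return. It stood at 34.9, 79.8 and 161 CPM in 9M_PoW+DT, against 65.4, 203 and 172 CPM in 9M_UT. It stood at 163, 53 and 85.6 CPM in 6M_POW_LD and at 38.2, 49.5 and 170 CPM in 6M_PoW, against 357, 30.7 and 159 CPM in 6M_UT. The untrained 6-month group held both the highest and the lowest library of the series, 11.6-fold apart, and every other group lay within its range.

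Cebpd (chromosome 16, 15887286 to 15891031) encodes the transcription factor C/EBP-delta, which responds early to glucocorticoids and cytokines. It stood at 6.43, 21.6 and 49.4 CPM in 9M_PoW+DT, against 31.6, 104 and 128 CPM in 9M_UT, and the groups overlapped only between the lowest 9M_UT and the highest 9M_PoW+DT library. It stood at 33.1, 15.1 and 21.7 CPM in 6M_POW_LD and at 26.6, 23.7 and 62.1 CPM in 6M_PoW, against 137, 12.0 and 29.9 CPM in 6M_UT. Only 1 of the 3 untrained 6-month libraries was above every LD and trained library. The highest group mean, 87.8 ± 50.2 CPM in 9M_UT, was 3.77-fold the lowest, 23.3 ± 9.10 CPM in 6M_POW_LD (SD, n = 3 each), less than the 11.4-fold range inside 6M_UT.

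Klf15 (chromosome 6, 90462576 to 90475238) encodes a transcription factor that the glucocorticoid receptor induces directly in muscle and that raises the breakdown of branched-chain amino acids. It stood at 33.8, 55.1 and 56.8 CPM in 9M_PoW+DT, against 41.8, 57.3 and 67.0 CPM in 9M_UT. It stood at 46.6, 32.1 and 39.5 CPM in 6M_POW_LD and at 44.3, 43.4 and 45.1 CPM in 6M_PoW, against 99.8, 43.7 and 53.8 CPM in 6M_UT. Outside 6M_PoW its libraries stood in the order most of the 10 genes shared, but the steps between them were smaller. Its pooled within-group SD was 0.39 on the log2 scale, the smallest of the 10, and the trained libraries were within 1.04-fold of each other. The mean was 48.6 ± 12.8 CPM in 9M_PoW+DT, 55.4 ± 12.7 in 9M_UT, 39.4 ± 7.23 in 6M_POW_LD, 44.3 ± 0.826 in 6M_PoW and 65.8 ± 29.9 in 6M_UT (SD, n = 3 each).

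Depp1 (chromosome 6, 116650609 to 116652794) is a FoxO target that rises in fasting and is linked to autophagy. It stood at 2.52, 7.79 and 27.4 CPM in 9M_PoW+DT, against 8.86, 50.1 and 55.5 CPM in 9M_UT. It stood at 23.6, 2.17 and 13.6 CPM in 6M_POW_LD and at 7.45, 11.2 and 33.6 CPM in 6M_PoW, against 99.2, 7.64 and 18.0 CPM in 6M_UT. Every group spanned at least 4.52-fold, more than the 3.31-fold between the highest and the lowest group mean. Its pooled SD of 1.61 was, after that of Ddit4, the second of the 10.

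Arrdc2 (chromosome 8, 70835129 to 70839720) encodes an arrestin-domain protein whose transcript rises in muscle with glucocorticoids and fasting. It stood at 12.4, 132 and 274 CPM in 9M_PoW+DT, against 51.7, 137 and 178 CPM in 9M_UT, so that the detrained group held both ends of the 9-month range. It stood at 207, 17.5 and 61.6 CPM in 6M_POW_LD and at 49.6, 65.7 and 84.3 CPM in 6M_PoW, against 222, 93.2 and 105 CPM in 6M_UT. The trained libraries were all below the untrained ones of the same age, and this was the 1 case among the 10 genes and the 5 pairs of groups in which the groups did not overlap. Of all genes tested, 8.28% were lower and 7.89% higher without overlap in that pair, 16.2% together. The share without overlap in either direction was 11.9% in 9M_PoW+DT against 9M_UT, 25.2% in 6M_POW_LD against 6M_UT, 21.4% in 6M_POW_LD against 6M_PoW and 11.8% in 9M_UT against 6M_UT.

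Cdkn1a (chromosome 17, 29090976 to 29100727) encodes the cell cycle inhibitor p21, a target of p53 that also responds to glucocorticoids and FoxO factors. It stood at 11.5, 32.8 and 59.3 CPM in 9M_PoW+DT, against 30.7, 70.1 and 79.8 CPM in 9M_UT. It stood at 58.0, 25.4 and 45.1 CPM in 6M_POW_LD and at 23.4, 18.6 and 52.3 CPM in 6M_PoW, against 128, 10.8 and 82.6 CPM in 6M_UT. The untrained 6-month group again held the highest and, at 10.8 CPM, the lowest library. Of 14 listed genes, the p53 gene itself and its targets, 8 had a likeness to Ddit4 above 0, and the list's median was 0.04.

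Pdk4, Angptl4 and Ucp3 are genes of fuel use that fatty acids raise through PPAR receptors. Pdk4 (chromosome 6, 5483351 to 5496309) encodes the kinase that shuts pyruvate dehydrogenase and so spares glucose. It stood at 430, 1104 and 3074 CPM in 9M_PoW+DT, against 1417, 3024 and 4458 CPM in 9M_UT. It stood at 1512, 473 and 1647 CPM in 6M_POW_LD and at 1627, 1898 and 3589 CPM in 6M_PoW, against 6133, 627 and 2962 CPM in 6M_UT. The 6M_UT libraries covered the 6-month range except for 6M_POW_LD replicate 5, which was lower. The mean was 1536 ± 1374 CPM in 9M_PoW+DT, 2966 ± 1521 in 9M_UT, 1211 ± 642 in 6M_POW_LD, 2371 ± 1063 in 6M_PoW and 3241 ± 2763 in 6M_UT (SD, n = 3 each), with each step between neighbours in the order of means smaller than the larger SD of the pair.

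Angptl4 (chromosome 17, 33773750 to 33781830) encodes a secreted inhibitor of lipoprotein lipase. It stood at 1.30, 1.78 and 8.64 CPM in 9M_PoW+DT, against 6.25, 6.49 and 10 CPM in 9M_UT. It stood at 1.63, 3.33 and 9.31 CPM in 6M_POW_LD and at 4.45, 5.66 and 10.7 CPM in 6M_PoW, against 29.7, 1.13 and 11.7 CPM in 6M_UT. Its widest group, 6M_UT, spanned 26.2-fold, and its LD libraries ran in an order of their own, with replicate 4 lowest where Ddit4 was highest.

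Ucp3 (chromosome 7, 100472990 to 100486432) encodes a mitochondrial carrier of muscle and brown fat that rises when fat is burned. It stood at 63.5, 102 and 407 CPM in 9M_PoW+DT, against 112, 210 and 338 CPM in 9M_UT. It stood at 140, 46.6 and 154 CPM in 6M_POW_LD and at 134, 172 and 227 CPM in 6M_PoW, against 639, 91.8 and 192 CPM in 6M_UT. In 9M_PoW+DT and in 6M_UT 1 library stood well above the others, while the trained libraries stayed within 1.69-fold.

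**Figure D1:**
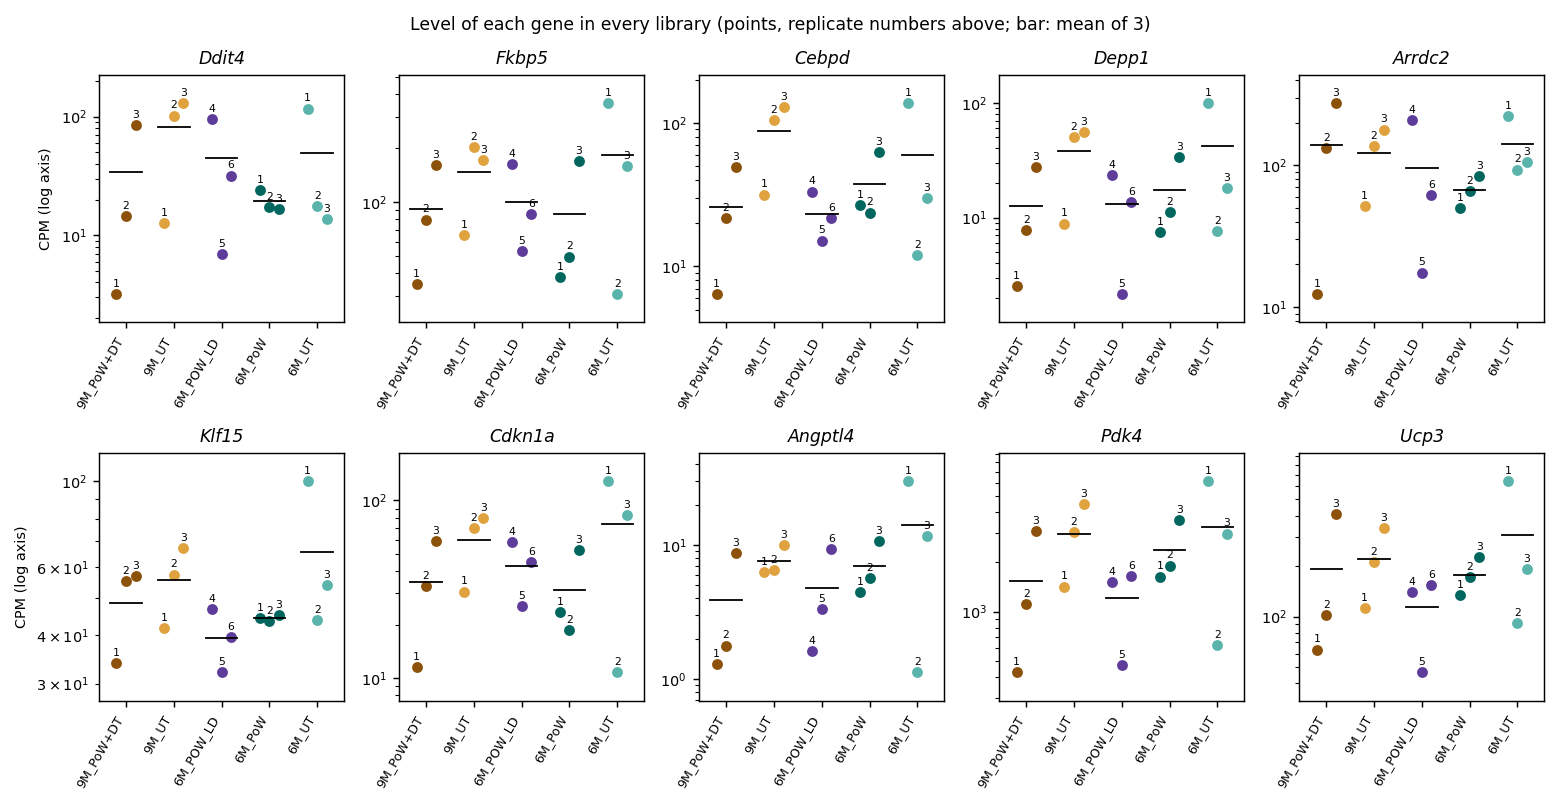
Level of each of the 10 genes in CPM on a log axis, by group; points are libraries with their replicate number, and bars are means of 3 libraries. In every panel the widest group spans more than the highest over the lowest mean, and 6M_UT replicate 1 is the highest of its group in all 10 panels.

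Libraries of the widest group differed by more than the group means did. The widest group spanned more than the fold between the highest and lowest group mean in 10 of 10 genes. The values ran from 2.28-fold against 1.67-fold for Klf15 to 26.5-fold against 4.22-fold for Ddit4. The narrowest group spanned less than the means did except for Fkbp5 and Depp1, for instance 1.46-fold in 6M_PoW for Ddit4. The count sets the largest of several ranges of single libraries against a range of averages, which favours the former. How many of all genes would show the same was not counted. The pooled within-group SD on the log2 scale was 1.75 for Ddit4, 1.61 for Depp1, 1.42 for Arrdc2 and 1.39 for Angptl4. It was 1.21 for Cebpd, 1.20 for Fkbp5, 1.18 for Pdk4, 1.14 for Cdkn1a and 1.06 for Ucp3. Over 15181 genes tested the median was 0.24 and the 95th percentile 0.88, so that 9 of the 10 lay above the 95th percentile, and Klf15 at percentile 69.1. The share of a gene's variation over the 15 libraries that lay within groups had a median of 80.6% for the 10 genes and 62.5% for all genes, from 65.5% for Klf15 to 88.3% for Arrdc2. Since the genes were chosen for varying inside groups, these values describe the choice and carry no test.

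**Figure D2:**
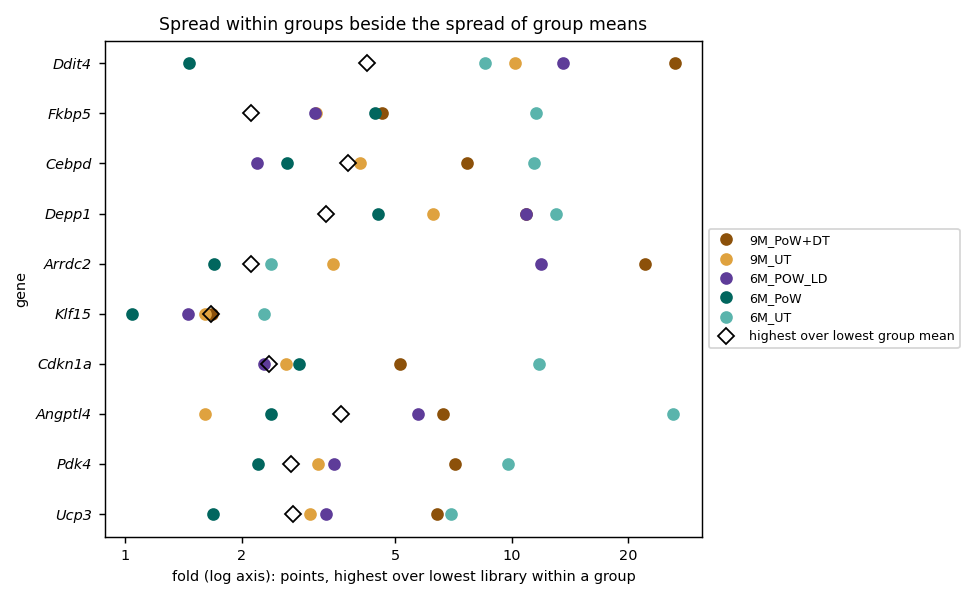
Fold between the highest and lowest library within each group (filled points) and between the highest and lowest group mean (open diamonds), per gene on a log axis. For each gene at least 1 group spans more than the group means do, up to 26.5-fold for Ddit4 in 9M_PoW+DT, while 6M_PoW is the narrowest group for 6 of the genes.

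The same libraries stood at the top and the bottom for most of the genes. In 9M_PoW+DT, replicate 3 was above replicate 2 and replicate 2 above replicate 1 for 10 of 10 genes, with median deviations from the group mean of 1.5, 0.01 and -1.34 on the log2 scale. In 9M_UT replicate 3 was highest for 9 genes (Fkbp5 had replicate 2) and replicate 1 lowest for all 10, with a median deviation of -0.96. In 6M_UT replicate 1 was highest for 10 of 10, with a median deviation of 1.54, and replicate 2 lowest for 9, with -1.62, the exception being Ddit4. In 6M_POW_LD replicate 4 was highest for 7 genes and replicate 6 for Pdk4, Ucp3 and Angptl4, and replicate 5 was lowest for 9. In 6M_PoW replicate 3 was highest for 9 genes, and Ddit4 was the exception, with replicate 1 highest and replicate 3 lowest. Ddit4 itself therefore shared its order of libraries with 9 of the 9 other genes in 9M_PoW+DT, 8 in 9M_UT, 6 in 6M_POW_LD, 0 in 6M_PoW and 0 in 6M_UT.

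**Figure D3:**
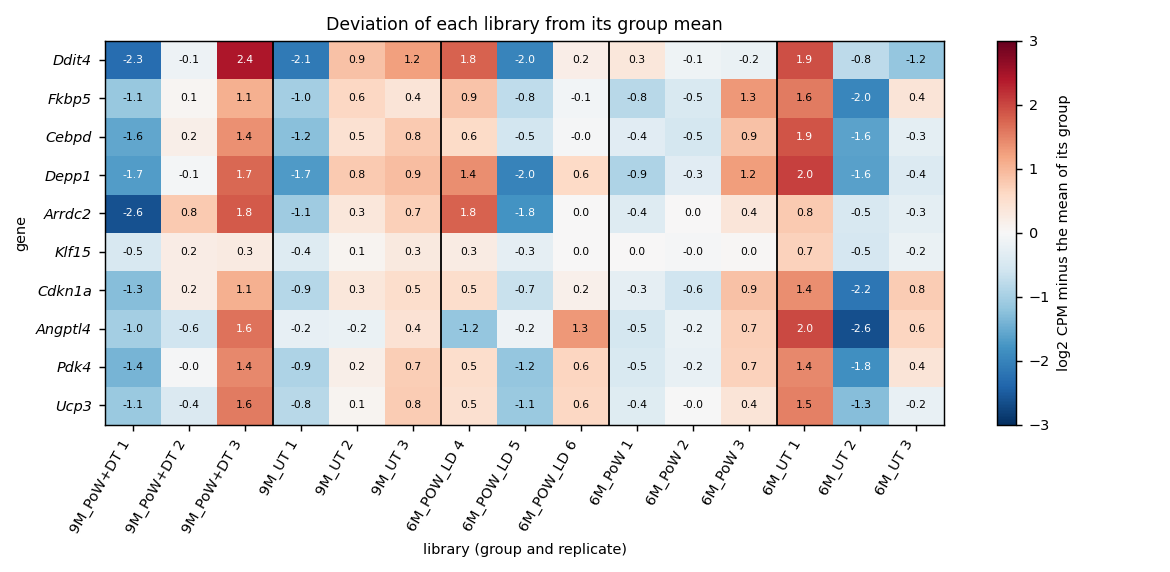
Deviation of each library from the mean of its group in log2 CPM, with genes in rows and libraries in columns. Most columns keep 1 sign for most genes: 9M_PoW+DT replicate 3 and 6M_UT replicate 1 are above their group mean for all 10 genes, and 9M_PoW+DT replicate 1 and 6M_UT replicate 2 below it for all 10.

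Pearson's correlation with Ddit4, taken over deviations from group means in 15 libraries, was 0.90 for Arrdc2, 0.89 for Depp1, 0.87 for Klf15, 0.87 for Ucp3, 0.84 for Cebpd and 0.80 for Pdk4. It was 0.71 for Fkbp5, 0.69 for Cdkn1a and 0.43 for Angptl4, and Spearman's rho ran from 0.38 for Angptl4 to 0.88 for Klf15. All these values share 1 set of libraries and their scaling factors, and they are descriptions of what the choice used. Without the 2 libraries farthest from the middle in Ddit4, 9M_PoW+DT replicates 1 and 3, the correlation stood at 0.86 for Arrdc2, Depp1 and Klf15, 0.58 for Cdkn1a and 0.25 for Angptl4. Over the 45 pairs among the 10 genes the median was 0.86, from 0.36 for Arrdc2 with Angptl4 to 0.96 for Fkbp5 with Cdkn1a. Over all other genes the median correlation with Ddit4 was -0.03. The rule gave no threshold: among 9093 well expressed genes outside the 10, 22 were closer to Ddit4 than Arrdc2, 519 closer than Fkbp5 and 1981 closer than Angptl4. Angptl4 at 0.43 had Nemf, Ip6k3 and Srsf6 beside it at the same value.

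The genes most like Ddit4 in this measure were Tns2 (0.97), Pim3 (0.96), Tuba4a, Zfp36 and Clk1 (0.95 each), Kif1c (0.94), Tsc22d3 and Nsmf (0.93 each), and Ppp2r2d and Cebpb (0.92 each). Tsc22d3 encodes GILZ, a glucocorticoid-induced leucine zipper protein, Cebpb the sister factor of C/EBP-delta, Zfp36 a protein that destabilises cytokine mRNAs, and Pim3 a kinase. Tsc22d3 stood at 123, 197 and 310 CPM in 9M_PoW+DT replicates 1 to 3, against 187, 264 and 284 CPM in 9M_UT. It stood at 256, 128 and 186 CPM in 6M_POW_LD replicates 4 to 6 and at 195, 177 and 140 CPM in 6M_PoW, against 383, 216 and 141 CPM in 6M_UT. In each of the 5 groups the order of its libraries was that of Ddit4, including 6M_PoW and 6M_UT, where the other 9 genes departed from it.

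Lists of related genes were compared with Ddit4 in the same way. Other glucocorticoid-induced genes had a median correlation of 0.72, with 20 of 20 above 0 and 8 at 0.8 or more. Among them were the clock gene Per1 (0.87), the kinase gene Sgk1 (0.83) and the zinc finger gene Zbtb16 (0.63). FoxO factors and their targets had a median of 0.64, with 14 of 15 above 0, among them Foxo3 (0.86), Foxo1 (0.81) and the muscle ubiquitin ligase genes Trim63 (0.79) and Fbxo32 (0.64). Trim63, which encodes MuRF1, spanned 151 to 1278 CPM inside 6M_UT, and those were libraries 2 and 1, the lowest and the highest for most of the 10 genes. The median was 0.32 for 25 PPAR receptor and fatty acid genes, with none at 0.8 or more, although Pdk4 and Ucp3 are targets of the same receptors, and Cpt1b, the muscle carnitine transferase, had 0.44. It was 0.22 for 11 branched-chain amino acid and KLF15 target genes, where the proline oxidase gene Prodh had 0.87. It was 0.27 for 12 partners of DDIT4 in mTORC1 signalling, and 0.38 for 9 relatives of Arrdc2 and Klf15, of which Arrdc3 had 0.89. The list of the receptor, steroid metabolism and chaperones had a median of -0.09. In that list the receptor gene Nr3c1 had -0.05 and lay between 77.8 and 122 CPM in all libraries, Hsd11b1, which regenerates active glucocorticoid inside cells, had 0.42, and H6pd, which supplies its cofactor, had 0.82. These lists were drawn up with earlier results of these libraries known.

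Markers of other cells and of the tissue were set beside this. The summed level of the fibre genes had a correlation of 0.80 with Ddit4, that of adipocyte markers 0.73, immediate early genes 0.67, fibro-adipogenic progenitor markers 0.39, macrophage markers 0.26 and erythroid markers -0.02. It was -0.45 for endothelial markers, -0.47 for clock genes and -0.25 for the library total. In 9M_PoW+DT replicate 3, where all 10 genes were highest in their group, the adipocyte hormone gene Adipoq stood at 14.5 CPM, against 3.91 and 4.79 CPM in replicates 1 and 2. In 6M_UT, whose replicate 1 was highest for all 10 genes, Adipoq stood at 3.95, 2.51 and 3.14 CPM. In 9M_UT, where Ddit4 was highest in replicate 3, Adipoq stood at 4.06, 4.46 and 2.26 CPM. In 6M_POW_LD, where Ddit4 was highest in replicate 4, it stood at 0.343, 2.85 and 3.95 CPM in replicates 4 to 6. In 6M_PoW it stood at 2.11, 2.96 and 2.52 CPM. The correlation of Adipoq with Ddit4 over 15 libraries was -0.03. Fibre gene sums lay between 127280 and 163013 CPM in 9M_PoW+DT, 127936 and 151934 CPM in 9M_UT, 129207 and 144506 CPM in 6M_POW_LD, 120631 and 132985 CPM in 6M_PoW and 127260 and 145743 CPM in 6M_UT. Gene by gene, the fibre list had a median of 0.36, from -0.83 for the myosin gene Myh2 to 0.81 for the calcium pump gene Atp2a1, and the adipocyte list a median of 0.07, from -0.23 for Pck1 to 0.86 for Plin4. The progenitor list had a median of -0.54, from -0.85 to 0.81, with 2 of 8 genes above 0, although its sum had 0.39. Medians gene by gene were 0.17 for immediate early genes, 0.15 for macrophage markers, -0.33 for endothelial markers and -0.20 for clock genes. The part of these cell types, of the fibre makeup and of the clock in the spread was not tested.

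**Figure D4:**
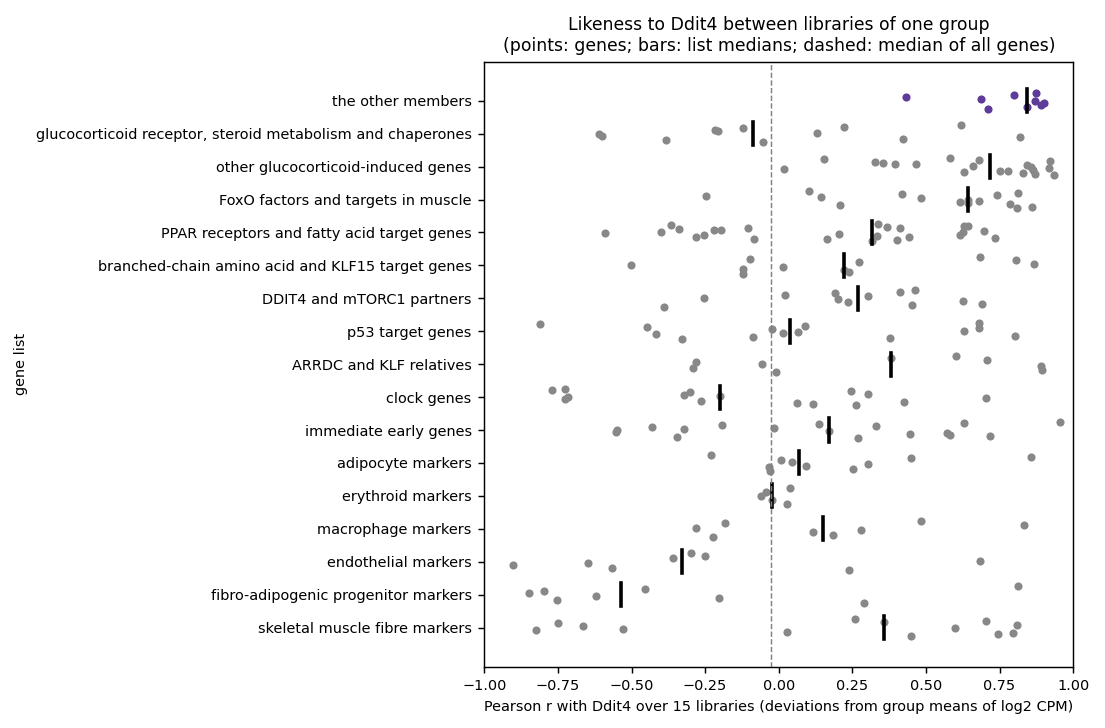
Pearson's correlation with Ddit4 over deviations from group means in 15 libraries, with a point per gene, bars at list medians and a dashed line at the median of all genes. The other 9 genes run from 0.43 to 0.90, other glucocorticoid-induced genes have a median of 0.72, FoxO genes 0.64, and the receptor and chaperone list -0.09.

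Detrained muscle was compared with untrained muscle at 9 months to ask what remained after training ended. For 9 of the 10 genes the fitted value was lower in 9M_PoW+DT, with a median log2 fold change of -0.87 against 0.005 for all genes, but in edgeR's quasi-likelihood test 0 of 10 passed an adjusted p of 0.05, beside 0.0201% of all genes. None of the 10 had an unadjusted p under 0.05 in edgeR, beside 6.52% of all genes, and none passed in DESeq2 or limma-voom. Cebpd was at -1.77 ± 1.05 (SE), with a 95% interval of -4.18 to 0.65, and Depp1 at -1.60 ± 1.24. Ddit4 was at -1.25 ± 1.29, with an interval of -4.20 to 1.71, Pdk4 at -0.95 ± 0.93 and Klf15 at -0.19 ± 0.32. Arrdc2 alone was above 0, at 0.19 ± 0.91. The intervals thus leave room for a fall or a rise of several fold in most of these genes, and edgeR's adjusted p ran from 0.811 to 0.984. With 9M_PoW+DT replicate 3 left out, Ddit4 was at -3.22, Depp1 at -2.89 and Pdk4 at -1.95, and with replicate 1 of that group left out Ddit4 was at -0.71 and Pdk4 at -0.51. The median of the 10 was -1.70 when 9M_PoW+DT replicate 3 was left out, -0.44 when replicate 1 of that group was and -0.55 with 9M_UT replicate 3 left out. Of 10 adipocyte markers in the same comparison, 4 were higher at an unadjusted p under 0.05 and 0 passed in edgeR, with a median log2 fold change of 0.88, while DESeq2 called Lep, the leptin gene, as higher and limma-voom called 0. Lep was at 2.46 ± 0.67 (SE), Cidec, a lipid droplet gene, at 1.75 ± 0.70 and Adipoq at 1.11 ± 0.45. Not all markers of the list rose, with Plin4 at 0.17 ± 0.66 and Car3 at -0.05 ± 0.12. The summed adipocyte markers lay between 3094 and 4333 CPM in 9M_PoW+DT, against 3599 to 3636 CPM in 9M_UT. The part of these cells in the difference was not tested.

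Trained muscle was compared with untrained muscle at 6 months to ask what 8 weeks of PoWeR changed. The fitted value was lower in 6M_PoW for 10 of 10 genes, with a median log2 fold change of -1.05 against 0.001 for all genes, and 0 of 10 passed in edgeR, beside 0% of all genes. At an unadjusted p under 0.05 edgeR had 0 of the 10 and 9.75% of all genes, and DESeq2 and limma-voom called 0 of the 10. Ddit4 was at -1.35 ± 1.31 (SE), with a 95% interval of -4.35 to 1.65, Depp1 at -1.25 ± 1.21, Cdkn1a at -1.23 ± 0.91 and Fkbp5 at -1.08 ± 0.98. Arrdc2, whose groups did not overlap, was at -1.07 ± 0.92, and edgeR's adjusted p was 0.748. Klf15 had the narrowest interval, -1.31 to 0.16 around -0.57. The standard errors of the 10 ran from 0.32 to 1.31, against a median of 0.20 over all genes. The spread inside groups for which the genes were chosen enters these errors, so the 0 of 10 was not independent of the choice. Without 6M_UT replicate 1 the median was 0.21, and 4 of 10 genes were below 0. Ddit4, Cebpd, Depp1, Angptl4, Pdk4 and Ucp3 were then above 0, at 0.30, 0.84, 0.45, 0.13, 0.40 and 0.32, and Fkbp5, Arrdc2, Klf15 and Cdkn1a at -0.14, -0.57, -0.14 and -0.57. The median of the 10 was -0.56 with limma-voom, with 10 of 10 below 0, and -0.55 with LD libraries counted as untrained, with 9 of 10 below 0. Of 8 fibro-adipogenic progenitor and 8 endothelial markers 5 each were higher in 6M_PoW at an unadjusted p under 0.05, with medians of 0.47 and 0.42. In edgeR and limma-voom 0 of these passed, and DESeq2 called 3 of the progenitor markers and 0 of the endothelial ones. Progenitor marker sums lay between 1058 and 1233 CPM in 6M_PoW, against 850 to 985 CPM in 6M_UT, and endothelial sums between 328 and 363 CPM in 6M_PoW, against 255 to 311 CPM in 6M_UT. These groups did not overlap, and the part of these cells in the differences was not tested.

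The LD libraries were compared with the same 6M_UT libraries, so this difference shares its reference with the training one. They carry a series of library identifiers of their own. In both LD comparisons, for the 10 genes and for the lists below, what LD marks and that series cannot be told apart. The fitted value was lower in 6M_POW_LD for 10 of 10 genes, with a median of -1.10 against 0.008 for all genes, and 0 of 10 passed in edgeR, beside 4.99% of all genes. Klf15 was at -0.74 ± 0.31 (SE), with a 95% interval of -1.42 to -0.06, an unadjusted p of 0.0364 and an adjusted p of 0.215 in edgeR, where 20% of all genes had an unadjusted p under 0.05. Without 6M_UT replicate 1 Klf15 was at -0.31, with an adjusted p of 0.616, and over all alternatives its adjusted p ran from 0.107 to 0.616. Depp1 was at -1.67 ± 1.22, Angptl4 at -1.56 ± 1.03, Ucp3 at -1.44 ± 0.87, Pdk4 at -1.42 ± 0.91 and Ddit4 at -0.15 ± 1.29. Without 6M_UT replicate 1 the median was -0.09, with 6 of 10 below 0. Against 6M_PoW, a median of -0.29 was found, with 6 genes below and 4 above 0, and 0 of 10 passed in edgeR, beside 2.40% of all genes, with a smallest adjusted p of 0.730. None of the 10 had an unadjusted p under 0.05 there, beside 14.3% of all genes. That LD median against 6M_PoW was 0.20 without 6M_PoW replicate 3, 0.03 without 6M_POW_LD replicate 5, -0.53 without 6M_POW_LD replicate 4 and -0.47 without 6M_PoW replicate 1. DESeq2 and limma-voom called 0 of the 10 in both LD comparisons.

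Untrained muscle of 9 months was set against that of 6 months, and here age and the series of library identifiers cannot be told apart. The median was -0.22, with 8 of 10 below 0, and 0 of 10 passed in edgeR, beside 0.0134% of all genes. Ddit4 was at 0.73 ± 1.27 (SE) and Cebpd at 0.56 ± 1.02, while Angptl4 was at -0.89 ± 1.02, and edgeR's adjusted p ran from 0.938 to 0.996. Without 6M_UT replicate 1 the median was 0.64 and 0 of 10 were below 0. With limma-voom it was 0.21, with 3 of 10 below 0, and with LD libraries counted as untrained 0.07, with 1 of 10 below 0. Without 6M_UT replicate 2 it was -0.62, without 9M_UT replicate 1 it was 0.11, and without 6M_UT replicate 3 it was -0.37. The detraining difference less the training difference had a median of 0.24, with 3 of 10 below 0 and 0 of 10 passed in edgeR, beside 0.0268% of all genes. Its values ran from -1.10 ± 1.45 for Cebpd to 1.26 ± 1.29 for Arrdc2, and the median was -0.82 with 6M_UT replicate 1 left out and -0.95 with 9M_PoW+DT replicate 3 left out. With limma-voom the median was -0.68, with 7 of 10 below 0, with the replicate number as a block 0.13, with 5 of 10 below 0, and with LD libraries counted as untrained 0.03, with 4 of 10 below 0. The 10 genes had no unadjusted p under 0.05 for age, beside 6.72% of all genes, or for this difference, beside 9.48%, and DESeq2 and limma-voom called 0 of them.

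**Figure D5:**
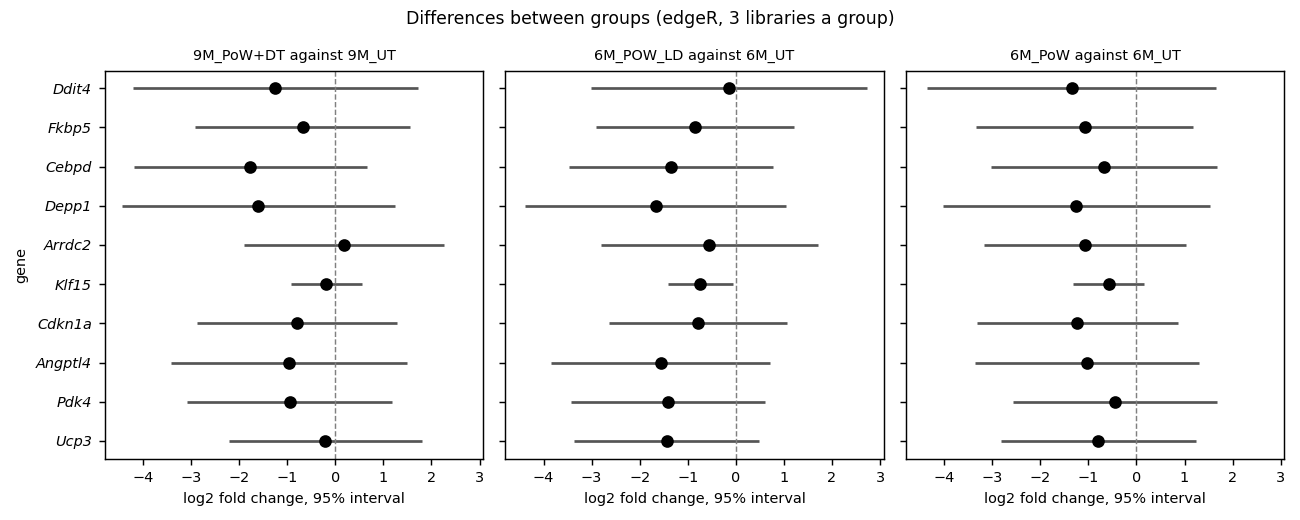
Log2 fold change of each gene with its 95% interval from edgeR in 3 comparisons of 3 libraries a group. All intervals contain 0 except that of Klf15 in 6M_POW_LD against 6M_UT, -1.42 to -0.06, whose adjusted p was 0.215, and most span several log2 units.

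The lists of related genes were tested in the same fits. In 9M_PoW+DT against 9M_UT, 0 of 20 other glucocorticoid-induced genes and 0 of 15 FoxO genes passed in edgeR, with medians of -0.39 and -0.29 on the log2 scale. At an unadjusted p under 0.05 there were 3 and 2 of them, all lower, beside 6.52% of all genes in either direction. DESeq2 called Irs2 of the first list and 0 of the second, and limma-voom 0 of each. The 9 relatives of Arrdc2 and Klf15 had a median of -1.05, with 5 lower at an unadjusted p under 0.05, to be read against the same 6.52%. Of these relatives edgeR and limma-voom called 0, and DESeq2 called Klf4 and Klf6 as lower. Of 17 immediate early genes Fosl2 and Nr4a2 fell, to 12.4 ± 1.64 and 0.940 ± 0.544 CPM in 9M_PoW+DT, against 32.6 ± 7.47 and 6.18 ± 0.772 CPM in 9M_UT (SD, n = 3 each). Their log2 fold changes were -1.40 ± 0.19 and -2.7 ± 0.39 (SE), with an adjusted p of 0.0209 for each in edgeR. Fosl2 passed in 12 and Nr4a2 in 13 of 20 alternatives. The call of Fosl2 ended when any 9M_PoW+DT library, 9M_UT replicate 2 or 3, or 6M_PoW replicate 2 was left out, with an adjusted p of up to 0.120, and with the replicate number as a block. That of Nr4a2 ended when 9M_PoW+DT replicate 2 or 3, any 9M_UT library or 6M_PoW replicate 2 was left out, with an adjusted p of up to 0.163. In limma-voom both calls ended. Both genes also passed as lower in the detraining difference less the training one, at -1.82 and -3.54 (adjusted p = 0.0330 each in edgeR), in 9 and 10 of 21 alternatives. With age 1 list gene passed, the immediate early gene Atf3, higher in 9M_UT by 2.12 on the log2 scale (adjusted p = 0.0302 in edgeR). Its call held in 11 of 21 alternatives and ended without any one 6M_UT library or without 6M_PoW replicate 1 or 2. The call of Atf3 also ended in limma-voom, with a stricter filter on low counts and with LD libraries counted as untrained. Fits of the groups compared alone and of all 15 libraries ended it too. In 6M_PoW against 6M_UT edgeR and limma-voom called 0 genes of any list. DESeq2 called 0 of the other glucocorticoid-induced, FoxO and PPAR lists there, and Ddit4l, a relative of Ddit4, and the p53 target Plk2 as higher.

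In 6M_POW_LD against 6M_UT, where 4.99% of all genes passed in edgeR and 20% had an unadjusted p under 0.05, 0 of 20 other glucocorticoid-induced genes passed in edgeR, DESeq2 or limma-voom, and 2 had an unadjusted p under 0.05 in edgeR. Of 25 PPAR and fatty acid genes 0 passed in edgeR and limma-voom, 8 had an unadjusted p under 0.05, all lower, and DESeq2 called 4 as lower. Of 15 FoxO genes, 7 of which were lower at an unadjusted p under 0.05, 2 fell, the factor gene Foxo4 by 0.39 and the mitophagy receptor gene Bnip3 by 0.47 on the log2 scale (adjusted p = 0.00129 and 0.0221 in edgeR). Of 12 mTORC1 partners Deptor, which encodes an mTOR inhibitor, rose by 0.86, and Rheb and Akt1s1 fell by 0.31 and 0.32 (adjusted p = 0.000458, 0.0257 and 0.0126 in edgeR). In the receptor and chaperone list the coactivator gene Ncoa1 rose by 0.43, and the chaperone gene Hsp90ab1 fell by 0.31 (adjusted p = 0.00875 and 0.0134 in edgeR). Of 14 genes in the list of p53 and its targets Ccng1 rose by 0.33 and Phlda3 fell by 0.84, and Cdkn1a stood at -0.78 ± 0.83 (SE) without passing. Foxo4, Deptor, Ncoa1, Ccng1 and Phlda3 passed in 21 of 21 alternatives. The calls of Bnip3, Rheb and Akt1s1 ended without 6M_POW_LD replicate 5, those of Bnip3 and Rheb also without 6M_POW_LD replicate 4 or without 6M_UT replicate 1 or 3, and that of Rheb without 6M_UT replicate 2 or in a fit of the compared groups alone. That of Hsp90ab1 ended without 6M_UT replicate 1 or 6M_POW_LD replicate 6. The clock gene Npas2 and the immediate early gene Jund rose by 1.66 and 0.43 (adjusted p = 0.0360 and 0.0238 in edgeR). Both calls ended without 6M_UT replicate 3 or 6M_POW_LD replicate 6 and in a fit of the compared groups alone, and that of Npas2 also without 6M_POW_LD replicate 4 or 5 or 9M_PoW+DT replicate 2. In the same comparison Pdgfra, Cd34, Dcn and Lum, 4 of 8 fibro-adipogenic progenitor markers, and Lyz2, 1 of 8 macrophage markers, passed as higher. Pdgfra and Lyz2 passed in 21 of 21 alternatives, Cd34 in 18, Dcn in 12 and Lum in 9. The last 3 calls each ended without 6M_POW_LD replicate 5 or 6M_UT replicate 3, those of Cd34 and Lum also without 6M_UT replicate 1, and those of Dcn and Lum without any of several other libraries. Of 13 fibre genes 3 passed as higher and 1 as lower. The part of these cells in the calls was not tested.

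In 6M_POW_LD against 6M_PoW, where 2.40% of all genes passed in edgeR, 7 pathway genes passed. The chaperone genes Hsp90ab1 and Ptges3 fell by 0.41 and 0.42 on the log2 scale, Foxo4 fell by 0.25, and the p53 targets Plk2 and Phlda3 fell by 1.05 and 0.54. Deptor rose by 0.49 and Ccng1 by 0.29. Hsp90ab1 and Plk2 passed in 21 of 21 alternatives (adjusted p = 0.00310 and 0.00477 in edgeR), Ptges3 in 17, Ccng1 in 16, Deptor in 13, Phlda3 in 11 and Foxo4 in 8. The calls of the last 5 each ended without 6M_PoW replicate 1 or 3 or without 6M_POW_LD replicate 4 or 5, and those of Deptor, Phlda3 and Foxo4 also without several other libraries.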

How the data were processed

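RNA of plantaris muscle was sequenced in 15 libraries of 5 groups, taken from the titles. One deposited table holds expected counts for each gene, and STAR 2.7.3a, Partek, DESeq2 and mm10 are named, without roles, in the submitters' processing notes. How reads were counted, whether strand was used and which annotation served was not given in the sources used here, so reads of overlapping or antisense genes cannot be told apart. Between 18865048 and 27688842 counts were held per library, which makes counting error small beside the spread between libraries for these genes.

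Expected counts were rounded, filtered with filterByExpr and scaled by TMM. edgeR's quasi-likelihood test (4.0.16, R 4.3.3) was fitted with 1 mean per group to 12 libraries (14919 genes) for training, detraining, their difference and age, and to 15 libraries (15181 genes) for LD. The Benjamini-Hochberg adjustment ran over all genes of a comparison, with calls at an adjusted p under 0.05. Training, LD and age share the 6M_UT libraries, and training and LD against trained share 6M_PoW. Log2 CPM used a prior count of 2. Alternatives used DESeq2 1.42.0 and limma-voom 3.58.1. The test was tested on simulated data with known fold changes.

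The 10 genes, the pathway lists and the rule for other named genes were chosen with earlier results of these data known. Named beside the 10 were the 10 genes most and the 4 least like Ddit4, list genes that passed a test or had the smallest p, and 16 genes set by name. Likeness is the correlation of deviations from group means in log2 CPM. The ranking of genes most and least like Ddit4 used only genes with an official symbol and a mean log2 CPM of at least 2. So did the counts of genes closer to Ddit4 than one of the 10. Correlations of list genes had no such limit. Genes named for single values outside this rule were Nemf, Ip6k3, Srsf6, H6pd, Arrdc3, Prodh, Myh2, Atp2a1, Pck1, Plin4, Lep and Cidec. They are list extremes, neighbours, markers or a call of another tool, chosen after their values were seen. Irs2, Klf4, Klf6, Ddit4l and Plk2 fell under the rule by their p, and their DESeq2 calls are given beside it.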

Additional observations from a re-analysis of the deposited data

How the results depend on the processing

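None of the 10 genes passed under any alternative, and of 1260 recomputed values 1179 kept their direction and 81 turned. Many alternatives left out a library outside the groups compared, which hardly moves a value. The training median, for instance, stayed at -1.05 without any single 9-month library. The 1179 therefore overstates how firm the directions were. Counts of genes called over the whole table moved more. With DESeq2 they were 117 for training, 30 for detraining, 98 for the difference of the contrasts, 58 for age, 1163 for LD against untrained and 675 for LD against trained. With limma-voom 0 genes were called for detraining, the difference and age. With no filter on low counts there were 8 for training, 10 for the difference and 10 for age, and with a stricter filter 0 for the difference and 0 for age. Fits of the groups compared alone gave 4 for training, 18 for detraining, 10 for age and 387 for LD against untrained, and the fit of 15 libraries gave 4 for age. Counting LD libraries as trained gave 29 for training and 2 for the difference, and counting them as untrained gave 1 for the difference. With one library left out the counts ran from 0 to 10 for training, 1 to 6 for detraining, 0 to 26 for the difference, 1 to 15 for age, 288 to 827 for LD against untrained and 157 to 428 for LD against trained. With one library left out the medians of likeness to Ddit4 and of the within-group SD ran from 0.79 to 0.89 and from 1.0 to 1.27, and without the 3 LD libraries they were 0.86 and 1.30. The log2 values that turned with limma-voom were Arrdc2 -0.51 for detraining and -0.13 for LD against trained; Ddit4 -1.14, Cdkn1a -0.24, Angptl4 -1.42 and Ucp3 -0.18 for the difference; and Fkbp5 0.15, Depp1 0.31, Cdkn1a 0.24, Angptl4 0.17 and Pdk4 0.26 for age. With LD libraries as untrained, Pdk4 was at 0.09 for training, Angptl4 at -0.52 for the difference, and for age Fkbp5 was at 0.06, Depp1 0.48, Arrdc2 0.06, Klf15 0.07, Cdkn1a 0.05, Pdk4 0.41 and Ucp3 0.06. With LD libraries as trained, Ddit4 was at -0.62 for the difference. With one library left out, values that turned ran, for training, Ddit4 -1.79 to 0.30, Cebpd -1.24 to 0.84, Depp1 -2.14 to 0.45, Angptl4 -1.58 to 0.13, Pdk4 -0.94 to 0.40 and Ucp3 -1.23 to 0.32; for detraining, Arrdc2 -0.76 to 0.73, Klf15 -0.36 to 0.02 and Ucp3 -1.41 to 0.24; for the difference, Ddit4 -1.87 to 0.64, Fkbp5 -0.54 to 1.37, Depp1 -2.05 to 0.54, Klf15 -0.05 to 0.61, Cdkn1a -0.23 to 1.01, Angptl4 -1.27 to 0.62 and Ucp3 -0.62 to 1.03; for age, Fkbp5 -0.81 to 0.64, Depp1 -0.62 to 1.58, Arrdc2 -0.57 to 0.31, Klf15 -0.47 to 0.18, Cdkn1a -0.81 to 0.37, Angptl4 -1.44 to 0.27, Pdk4 -0.62 to 0.73 and Ucp3 -0.93 to 0.63; for LD against untrained, Ddit4 -1.35 to 1.5, Fkbp5 -1.39 to 0.09, Cebpd -1.84 to 0.16 and Depp1 -2.41 to 0.03; and for LD against trained, Fkbp5 -0.31 to 1.20, Depp1 -1.15 to 0.48 and Arrdc2 -0.75 to 1.01. With the replicate number as a block there was 1 call for training, 2 for detraining, 4 for the difference and 5 for age, Ddit4 was at -0.13 and Angptl4 at -0.37 for the difference, and none of the 10 genes passed. The numbers are not shown to pair samples, since same-numbered libraries correlated at -0.06, 0.10 and -0.01 for training, 0.15, -0.09 and 0.10 for detraining and -0.22, -0.09 and -0.03 for age, and 2 of 6, 3 of 6 and 0 of 6 libraries were closest to their own number. The cause of these moves was not tested.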

Other observations

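Some genes ran opposite to Ddit4 inside groups. The lowest correlations of deviations from group means over 15 libraries were those of Manba (-0.94), Tmem14c, Exd2 and Cish (-0.91 each). Cish encodes an inhibitor of cytokine and growth hormone signalling that STAT5 induces. It stood at 7.99, 2.53 and 1.16 CPM in 9M_PoW+DT replicates 1 to 3, against 8.58, 2.09 and 2.46 CPM in 9M_UT. It stood at 1.46, 13.7 and 7.86 CPM in 6M_POW_LD replicates 4 to 6 and at 18.8, 11.8 and 12.7 CPM in 6M_PoW, against 0.989, 6.09 and 2.84 CPM in 6M_UT. In 6M_UT replicate 1, where all 10 glucocorticoid and fasting genes were at their highest in the group, Cish was at its lowest. All 3 trained libraries were above the untrained ones of the same age, with a log2 fold change of 2.10 ± 0.84 (SE) and an adjusted p of 0.470 in edgeR, while 7.89% of all genes were higher without overlap there.

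Among clock genes the output gene Dbp stood at 9.20, 115 and 9.69 CPM in 6M_UT replicates 1 to 3, so that replicate 2 stood far above the others, and replicate 2 was the lowest for 9 of the 10 genes. Nr1d1, which encodes the clock repressor REV-ERB alpha, had a correlation of -0.72 with Ddit4 and stood at 49.3, 83.8 and 138 CPM in the same libraries. The correlation of Dbp with Ddit4 was -0.32. Of 15 clock genes 7 were above 0, among them Cry2 at 0.70 and Per2 at 0.43, and the median was -0.20. Per2 was also highest in 6M_UT replicate 2, at 26.6 CPM. In 9M_PoW+DT Dbp stood at 42.1, 35 and 33.9 CPM, against 14.0, 7.21 and 6.00 CPM in 9M_UT, without overlap, as for 11.9% of all genes in either direction, and with a log2 fold change of 2.02 ± 1.01 (SE) and an adjusted p of 0.773 in edgeR.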
